A study of Mus musculus with 8 samples.

Results

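The genes flanking Lpcat1 on mouse chromosome 13 were examined to ask how far a local change around the targeted allele reaches. The set held 10 neighbours of Lpcat1, all on the same side of it. It was defined by position, but chosen with earlier results of these data known. In order from Lpcat1 its genes are Clptm1l, Tert, Slc12a7, Nkd2, Trip13, Brd9, Tppp, Cep72, Exoc3 and Ahrr. The array covered 5 other genes of this stretch that are not in the set, among them Slc6a3, the nearest on that side. The genes of the set were represented by 13 of the 55681 probes on the array. Of these probes 10, from 9 genes, gave enough signal to be tested. Of the 9 genes, 3 differed between genotypes: Trip13 was lower in the knockout retina, at 81.6% of the wildtype signal, and Tppp (123%) and Ahrr (142%) were higher. Of all tested probes on the array, 2.92% were called by the same rule. The count of 3 fell to as few as 1 when a single array was left out, with Trip13 called in 8 of 8 such fits, Ahrr in 3 and Tppp in 1. The other tested genes of the set did not pass the test, and neither did any tested gene among the 10 nearest on the other side of Lpcat1.

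Lpcat1 encodes lysophosphatidylcholine acyltransferase 1, which attaches a fatty acid to lysophosphatidylcholine. When a gene is disrupted in one strain and the allele is bred into another, the stretch of chromosome next to it is inherited along with the allele, so neighbouring genes can keep the sequence of the donor strain. A disrupted allele can also alter nearby transcription directly, through a lost regulatory element or an inserted promoter. The 10 genes have diverse functions and were grouped by their place on the chromosome.

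Total RNA of the whole retina from C57BL/6 mice aged 2 weeks was measured in 4 wildtype (WT) samples and in 4 samples of Lpcat1 knockout (KO) mice. The KO allele was made on a C57BL6/N background, and the line was crossed with C57BL6/J to remove the rd8 allele of Crb1. Mice homozygous for rd8 were not used. How the allele was disrupted and how many animals gave each sample are not given in the sources used here. The p-values therefore measure the spread between these samples, which may be technical in part. Each sample was hybridised to 1 Agilent array. All 8 arrays lay on 1 slide, with WT in one row and KO in the other, so that row and genotype cannot be told apart. The 75th percentile signal ranged from 669 to 716 over the WT arrays and from 638 to 738 over the KO arrays (exact permutation test, two-sided, p = 0.486), and 0 spots were saturated. Precision is set by the 4 arrays per genotype.

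A level is the log2 signal of a probe minus the log2 of its array's 75th percentile signal, and a difference is KO minus WT on that log2 scale, with its standard error (SE). For a test, a probe had to be well above background on each of the 4 arrays of one genotype or of both. It was called at a limma adjusted p under 0.05, with adjustment over all 33972 tested probes, and a fold change over 1.2. Under this rule 992 probes were called, or 2.92% of those tested, with 1.38% higher and 1.54% lower in KO. Among the 10 tested probes of the flanking genes, 3 were called, 2 of them higher and 1 lower. An unadjusted limma p under 0.05 was reached by 5 of them, 2 of which belong to Exoc3, and by 23.8% of all tested probes. Values of WT and KO did not overlap in 4 of the 10 probes, against 17.5% of all tested probes. The median difference of the 10 probes was 0.06, with 6 above and 4 below 0, and the median over all tested probes was -0.04.

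Lpcat1 itself was measured by 1 probe (NM_145376), which gave a signal well above background throughout. The level was -0.42, -0.39, -0.43 and -0.38 in WT replicates 1 to 4. The level was -0.88, -0.92, -0.90 and -0.78 in KO replicates 1 to 4. All KO values lay below all WT values, and the difference was -0.46 (SE 0.04, limma adjusted p = 0.0036). Where this probe lies relative to the disrupted part of the gene was not settled, so the signal that remained does not tell whether intact transcript was present.

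**Figure D1:**
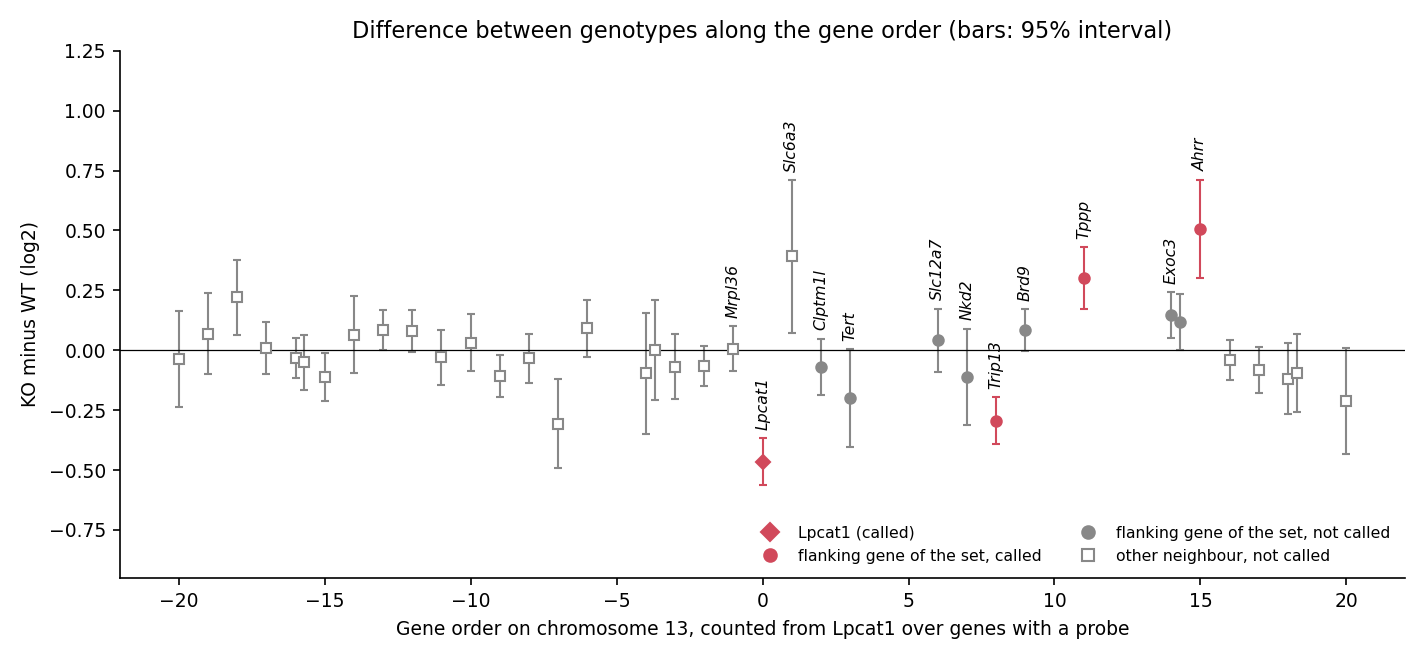
Difference between KO and WT (log2, vertical axis) of each tested probe against the order of its gene on chromosome 13, counted from Lpcat1 at 0 (horizontal axis). Points are limma estimates with 95% intervals from 4 arrays per genotype. Filled circles are probes of the 10 flanking genes, open squares other neighbours, and red marks called probes. Among the 20 nearest genes on each side, the called probes are those of Lpcat1, Trip13, Tppp and Ahrr.

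The genes of the set closest to Lpcat1 were considered first. Clptm1l encodes a membrane protein of the endoplasmic reticulum that moves lipids between leaflets. Its level was 2.88, 2.91, 2.92 and 2.95 in WT and 2.78, 2.76, 2.91 and 2.94 in KO. KO replicates 1 and 2 were below every WT array, and the other 2 lay within the WT range. The difference was -0.07 (SE 0.05, 95% interval -0.19 to 0.05, limma adjusted p = 0.452), and it ranged from -0.10 to -0.04 when single arrays were left out, with the smallest size without KO replicate 2.

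Tert encodes the catalytic subunit of telomerase. Its probe was dim but well above background on every array, with levels of -2.50, -2.48, -2.74 and -2.77 in WT and -2.75, -2.74, -2.98 and -2.81 in KO. The WT arrays fell into a higher and a lower pair, and 2 KO values lay below all of them. The difference was -0.20 (SE 0.09, 95% interval -0.40 to 0.0032, limma adjusted p = 0.217) and was not called.

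Slc12a7 encodes the potassium-chloride cotransporter KCC4. Its level was -0.67, -0.66, -0.60 and -0.64 in WT and -0.72, -0.64, -0.58 and -0.46 in KO. The KO values surrounded those of WT. The difference was 0.04 (SE 0.06, 95% interval -0.09 to 0.17, limma adjusted p = 0.708), and its sign turned when KO replicate 4 was left out.

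Nkd2 encodes an inhibitor of Wnt signalling that binds Dishevelled. Its brighter probe had levels of 0.43, 0.26, 0.32 and 0.24 in WT and 0.45, 0.14, 0.08 and 0.13 in KO. KO replicate 1 was the highest of all 8 values and the other 3 KO values were the lowest. The difference was -0.11 (SE 0.09, 95% interval -0.31 to 0.09, limma adjusted p = 0.485). The second Nkd2 probe exceeded background clearly on 1 WT array and 0 KO arrays and was not tested.

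Trip13, at position 8 in the gene order from Lpcat1, was the nearest flanking gene that was called. Its product is an AAA+ ATPase that remodels HORMA domain proteins such as MAD2 of the spindle checkpoint and acts in meiotic recombination. The next gene, Brd9, encodes a bromodomain subunit of BAF chromatin remodelling complexes and is transcribed in the opposite direction from a neighbouring start. The windows from 250 bases before to 50 bases after their starts overlap by 143 bases in the RefSeq annotation (GRCm38.p6), or by 160 bases for a second annotated start of Brd9. The Trip13 window, chr13:73937718-73938017 on the minus strand, is shown because the same stretch of DNA lies at the start of both genes, with the 143 shared bases in capitals.
Trip13: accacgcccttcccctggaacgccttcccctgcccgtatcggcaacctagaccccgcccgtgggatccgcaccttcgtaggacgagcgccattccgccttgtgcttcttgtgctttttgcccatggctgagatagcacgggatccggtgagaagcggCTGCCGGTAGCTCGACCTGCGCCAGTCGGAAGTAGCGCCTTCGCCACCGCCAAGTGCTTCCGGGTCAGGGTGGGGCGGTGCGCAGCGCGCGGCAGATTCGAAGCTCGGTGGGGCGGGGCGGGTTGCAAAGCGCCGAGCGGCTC

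The level of Trip13 was -2.02, -2.06, -2.07 and -2.06 in WT replicates 1 to 4. It was -2.28, -2.34, -2.33 and -2.43 in KO replicates 1 to 4. WT arrays spanned a narrow range, and every KO array was lower than every WT array. The difference was -0.29 (SE 0.04, 95% interval -0.39 to -0.20, limma adjusted p = 0.0130; two-sided exact permutation p = 0.0286, the smallest that 4 against 4 arrays can give). A difference of at least this size in either direction was found in 7.69% of all tested probes.

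The Trip13 probe is printed 10 times on each array, which shows the technical error behind its level. After removal of spots marked as outliers, 8 to 10 spots per array remained, and their SD within an array was 0.05 to 0.13. The spots of 1 array are not replicates of a genotype and enter the test as their mean.

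**Figure D2:**
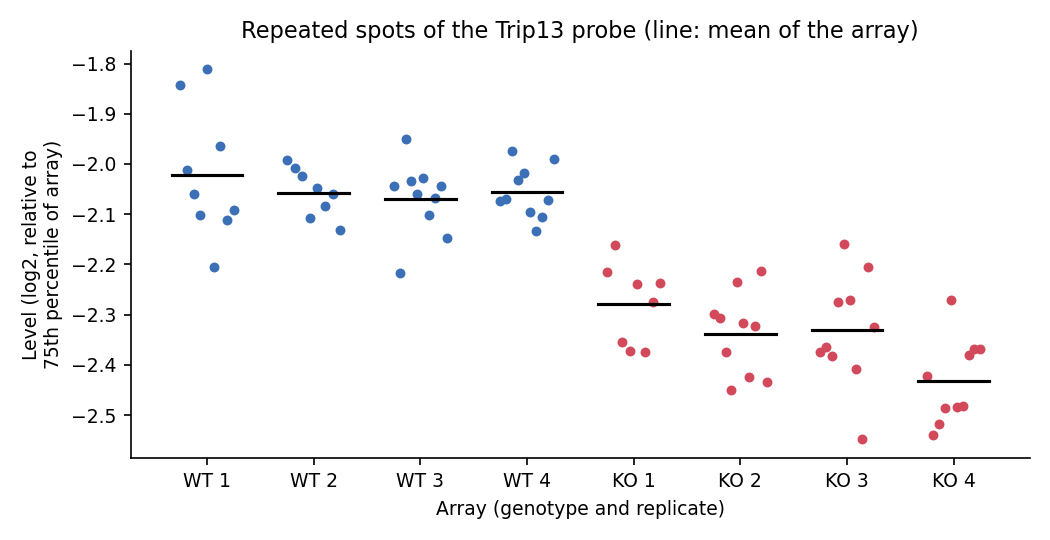
Level (log2, relative to the 75th percentile of the array) of each spot of the Trip13 probe on the 4 WT (blue) and 4 KO (red) arrays, with a line at the mean of each array. The WT means lie between -2.07 and -2.02 and the KO means between -2.43 and -2.28, while single spots overlap between genotypes.

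Brd9 was measured at 1.13, 1.24, 1.16 and 1.18 in WT and at 1.28, 1.26, 1.26 and 1.24 in KO. Of the KO arrays, 3 lay above the highest WT array. The difference was 0.08 (SE 0.04, 95% interval -0.0034 to 0.17, limma adjusted p = 0.227) and was not called. The pair of genes was compared within arrays after their values were seen. Relative to the WT mean, the Trip13 level minus the Brd9 level was -0.33, -0.37, -0.36 and -0.45 on the KO arrays and 0.08, -0.07, 0.00312 and -0.01 on the WT arrays. The KO mean was -0.38 (SD 0.05 over 4 arrays). Since the pair was picked for its values, this is a description, and no test is given.

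Tppp, at position 11, encodes tubulin polymerization-promoting protein, which bundles microtubules and is best known in oligodendrocytes. Its promoter window, chr13:74009169-74009468 on the plus strand, is shown because Tppp was called, with matches to GCGTG in capitals (CACGC when read on the opposite strand).
Tppp: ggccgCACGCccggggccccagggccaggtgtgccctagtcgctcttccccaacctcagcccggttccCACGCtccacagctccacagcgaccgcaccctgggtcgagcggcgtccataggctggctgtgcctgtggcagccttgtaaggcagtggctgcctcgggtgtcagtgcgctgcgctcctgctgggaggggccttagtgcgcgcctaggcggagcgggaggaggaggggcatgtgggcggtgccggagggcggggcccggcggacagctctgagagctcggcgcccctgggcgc

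The level of Tppp was 0.53, 0.57, 0.66 and 0.69 in WT replicates 1 to 4. It was 0.80, 1.00, 0.91 and 0.95 in KO replicates 1 to 4. All KO arrays were above all WT arrays, with KO replicate 1 closest to the WT range. The difference was 0.30 (SE 0.06, 95% interval 0.17 to 0.43, limma adjusted p = 0.0277; exact permutation p = 0.0286). The call was kept in 1 of 8 fits that left out an array, the one without KO replicate 1 (adjusted p = 0.0231), and the highest limma adjusted p was 0.0852, without WT replicate 2.

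Cep72 encodes a protein of centriolar satellites that takes part in microtubule nucleation at the centrosome. On none of the 8 arrays was its probe well above background. The processed signal ranged from 17.9 to 21.6 over the WT arrays and from 10.5 to 20.3 over the KO arrays, and no difference is given.

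Exoc3 encodes a subunit of the exocyst, the complex that tethers secretory vesicles to the plasma membrane. The level of its brighter probe was 2.86, 2.89, 2.93 and 2.97 in WT and 3.10, 3.07, 3.08 and 3.00 in KO. These values did not overlap, although the highest WT and the lowest KO array lay close together. The difference was 0.15 (SE 0.04, 95% interval 0.05 to 0.24, limma adjusted p = 0.0781) and did not pass the test. The second Exoc3 probe had levels of 0.15, 0.16, 0.20 and 0.13 in WT and 0.34, 0.37, 0.18 and 0.23 in KO. Its difference was 0.12 (SE 0.05, limma adjusted p = 0.206), so that both probes had positive estimates and neither was called.

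Ahrr, at position 15, lay farthest from Lpcat1 and had the largest difference among the 10 tested probes. It encodes the repressor of the aryl hydrocarbon receptor, a ligand-activated transcription factor that binds DNA with Arnt at the core letters GCGTG and induces Ahrr itself as part of a feedback loop. The promoter window of Ahrr, chr13:74292282-74292581 on the minus strand, is shown because it holds this core 3 times (capitals).
Ahrr: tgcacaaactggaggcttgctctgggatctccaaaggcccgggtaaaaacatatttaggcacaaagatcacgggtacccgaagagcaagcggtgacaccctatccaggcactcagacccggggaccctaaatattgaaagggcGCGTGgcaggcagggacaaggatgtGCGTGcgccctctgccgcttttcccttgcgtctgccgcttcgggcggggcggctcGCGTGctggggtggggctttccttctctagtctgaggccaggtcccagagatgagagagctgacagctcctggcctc

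The level of Ahrr was -0.82, -0.62, -0.53 and -0.52 in WT replicates 1 to 4. It was -0.29, -0.04, -0.16 and 0.02 in KO replicates 1 to 4. The lowest KO array lay above the highest WT array. The difference was 0.51 (SE 0.09, 95% interval 0.30 to 0.71, limma adjusted p = 0.0232; exact permutation p = 0.0286). The call was kept in 3 of 8 fits that left out an array and lost without WT replicate 2 or 3 or KO replicate 2, 3 or 4, with a highest limma adjusted p of 0.0693 (WT replicate 2). The second Ahrr probe exceeded background clearly on 0 WT arrays and 1 KO array and was not tested.

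**Figure D3:**
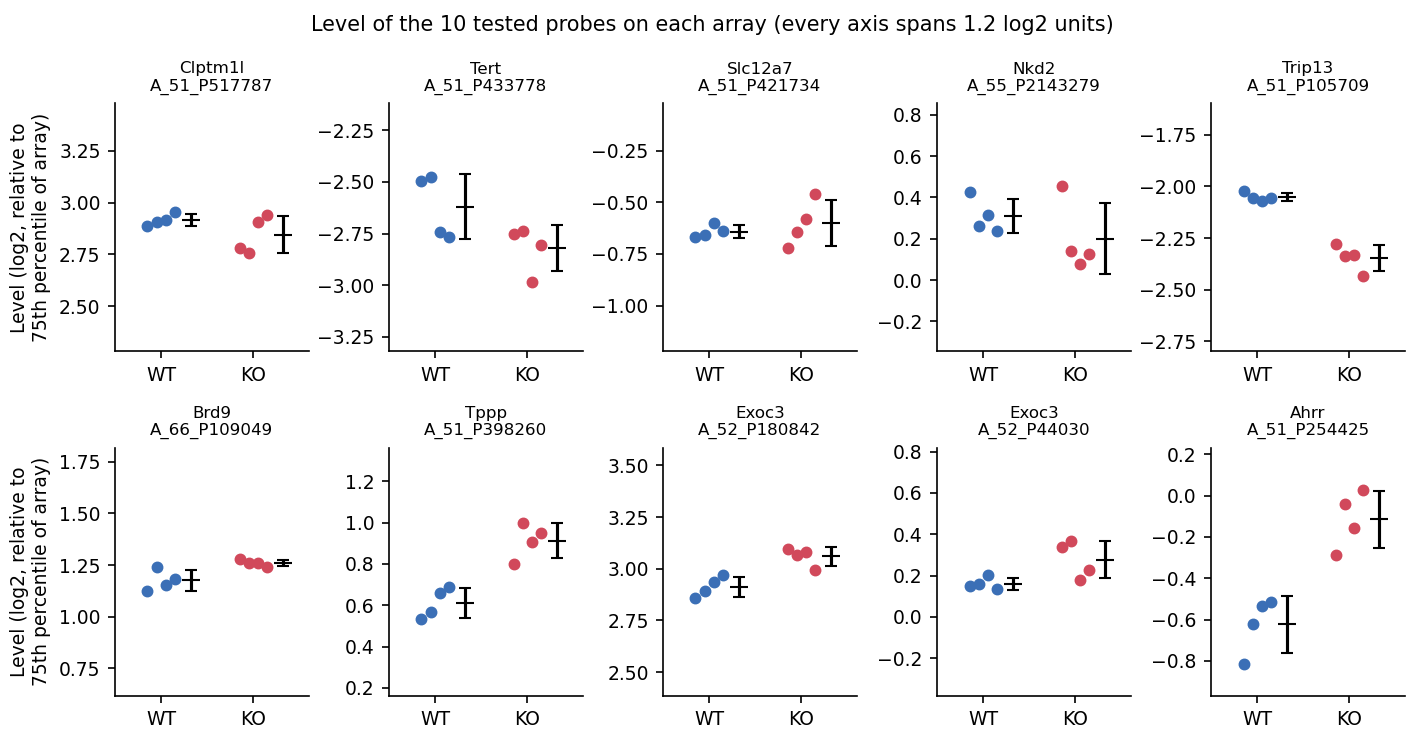
Level (log2, relative to the 75th percentile of the array) of the 10 tested probes of the flanking genes on each of the 4 WT (blue) and 4 KO (red) arrays, in gene order from Lpcat1. Horizontal ticks with bars are the mean and SD, and every vertical axis spans the same number of log2 units. Trip13, Tppp, the first Exoc3 probe and Ahrr show no overlap between genotypes.

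The direction of Trip13, Tppp and Ahrr was the same in all 20 other settings examined, which were 12 changes of processing or model and 8 fits without 1 array. Their calls were less stable than that of Lpcat1, which was called in all 20. Trip13 was called in 17, Ahrr in 14 and Tppp in 10. The level of Trip13 is a mean over repeated spots, while the tested probes of Tppp and Ahrr have 1 spot per array. These counts thus compare levels measured with unlike precision. Trip13 kept its call without any single array and lost it in 3 of the 12 changes of processing or model. Among these, its difference was -0.19 under normexp background correction and fell short of the minimum fold change, and with no filter on dim probes it stayed at -0.29 with a limma adjusted p of 0.0555.

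**Figure D4:**
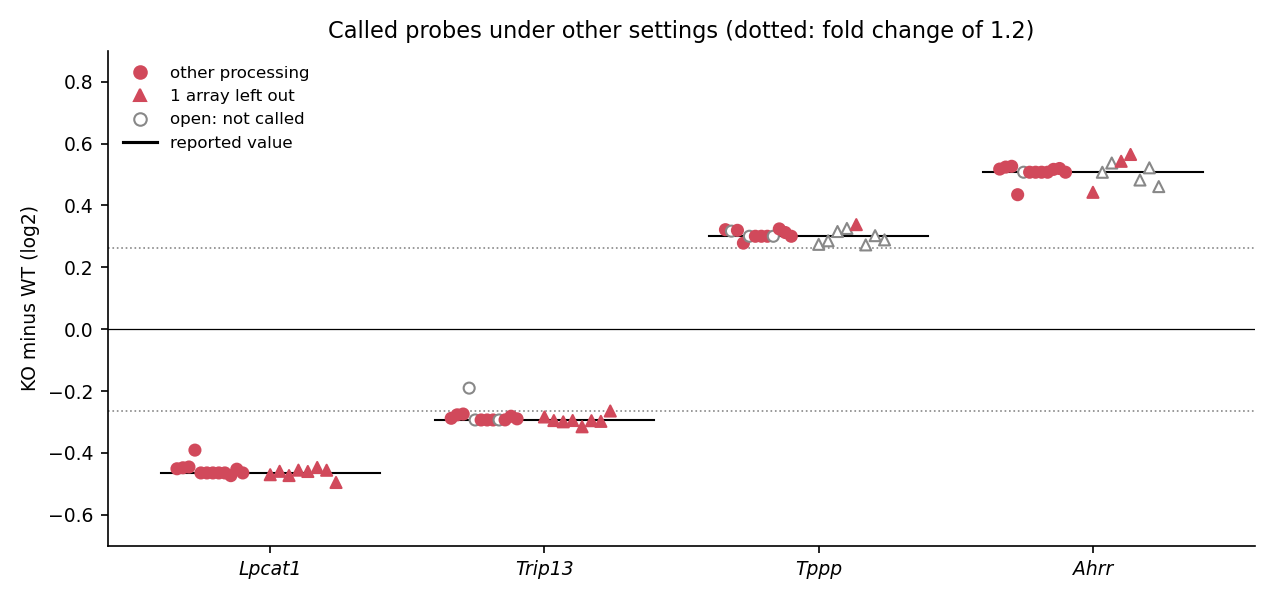
Difference between KO and WT (log2, vertical axis) of Lpcat1 and the 3 called flanking genes under other settings. Circles are other processing or models, triangles are fits without 1 array, open symbols were not called, black lines are the reported values and dotted lines mark the minimum fold change of 1.2. Estimates stay on one side of 0 for each gene, and 10 of 20 lost their call for Tppp against 0 of 20 for Lpcat1.

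Genes connected with the called members were followed to see whether they moved too. The lists were written after the values of the flanking genes had been seen. For Ahrr, the receptor, its partners and its induced genes were taken. Of 11 genes, 8 were tested and 0 were called in either direction, by limma or by the t-test named in the study's methods, while 2 reached an unadjusted limma p under 0.05 (5 negative and 3 positive differences, median -0.03). Over all tested probes 2.92% were called and 23.8% reached an unadjusted p under 0.05, which is the background for this list and those that follow. The receptor gene Ahr differed by -0.12 (adjusted p = 0.205), Cyp1b1 by 0.11 (0.326), Tiparp, a sensitive target, by -0.0051 (0.955) and Nqo1 by 0.22 (0.0693) by limma. Cyp1a1, Cyp1a2 and Ugt1a6a, classical targets, were not well above background on any array. The summed level of the list on the linear scale, in units of the 75th percentile signal, was 17.29 to 17.55 in WT and 16.15 to 17.26 in KO. Every KO sum lay below every WT sum, by a narrow margin.

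For Trip13, 14 genes of the spindle checkpoint and cell division were taken, of which 9 were tested. Of these, 1 was called lower, Mki67, a marker of cycling cells (-0.45, limma adjusted p = 0.0240), and 0 were called higher, with a median of -0.08. Mad2l1, which encodes the MAD2 substrate of Trip13, differed by -0.05 (limma adjusted p = 0.607). The summed level was 17.1 to 18.3 in WT and 16.9 to 17.7 in KO.

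For Tppp, 10 genes of myelin and oligodendrocytes were taken, of which 7 were tested. None was called (0 by limma, 0 by the t-test of the methods and 0 at an unadjusted limma p under 0.05), with a median of -0.07 from 2 positive and 5 negative differences. Olig1 and Olig2, which define the oligodendrocyte lineage, were not well above background on any array. The summed level was 19.8 to 25.6 in WT and 19.9 to 23.4 in KO, and these ranges overlapped.

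The tissue was checked with markers of retinal cell types. The 7 rod markers examined were all tested and had negative differences (median -0.21), with Sag and Nr2e3 called lower. Their summed level was 1285 to 1361 in WT and 1113 to 1161 in KO. Microglial markers had a median difference of 0.34, with 3 of 6 called higher (summed level 8.18 to 8.82 in WT and 10.4 to 10.6 in KO), and cone markers one of 0.33, with 2 of 4 called higher (95.9 to 102 and 116 to 126). In whole tissue, fewer cells of a type and less RNA per cell cannot be told apart, which applies to each value here. The part of these shifts in the differences of Trip13, Tppp and Ahrr was not tested. Among the other markers, 0 were called by limma of 4 tested for bipolar cells, 4 for Müller glia, 4 for retinal pigment epithelium, 2 for lens and 3 for blood, with medians of 0.07, 0.15, 0.17, 0.13 and 0.10. The t-test of the methods also called 0 of them, and 1, 3, 1, 0 and 0 reached an unadjusted limma p under 0.05. Summed levels were 122 to 126 in WT and 128 to 133 in KO for bipolar cells and 87.0 to 90.3 and 95.4 to 98.9 for Müller glia. The ranges of the pigment epithelium, lens and blood lists overlapped between genotypes.

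The promoter windows of the flanking genes were compared for the letters they share. RefSeq windows were matched for 9 of the 10 genes, without Clptm1l. GCGTG, read on both strands, was found in the windows of 5 of these, which were Slc12a7, Nkd2, Trip13, Tppp and Ahrr. The same letters are one form of the core bound by hypoxia-inducible factors. They were held by 32.4% of all 32851 windows of this length. The AP-1 letters TGANTCA were found in the windows of 0 of the 9 genes (7.81% of all windows). The window of Cep72 alone held TTTGAA, part of the site of TCF/LEF factors (17.9% of all windows). These matches describe the letters of the windows and are not evidence of binding.

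How far the change reached along the chromosome was described by gene order. Between Lpcat1 and Ahrr the array covered 15 genes, and 3 of their 11 tested probes were called (27.3%, against 2.92% of all tested probes). All 3 belong to the set described above, and the count was 1 to 3 when an array was left out. This stretch ends at Ahrr, itself a called gene of a set chosen with earlier results known. Its share therefore depends in part on where it was ended. The other 5 genes of this stretch gave 1 tested probe. It belongs to Slc6a3, the dopamine transporter and nearest neighbour of Lpcat1, which differed by 0.39 (SE 0.14, limma adjusted p = 0.136) at a dim level of -4.44 in WT. Slc6a18, Slc6a19, Zdhhc11 and Slc9a3 were not well above background on any array.

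Within the set, the size of the difference did not fall with distance from Lpcat1. The nearest members, Clptm1l, Tert, Slc12a7 and Nkd2, had sizes of 0.04 to 0.20 and were not called. The called genes stood at positions 8, 11 and 15. Outside the set, Slc6a3, nearest to Lpcat1 on this side, differed by 0.39 and was not called. The called share on this side was 14.3% of 7 tested probes over the 10 nearest genes. It was 11.1% of 45 for the 11th to 50th and 2.48% of 202 beyond, and no trend was tested. In simulated data 13 of 50 true changes of 0.3 log2 units were called, so a probe that was not called may still have changed. Immediately beyond Ahrr, Pdcd6 (-0.04), Sdha (-0.08), both probes of Ccdc127 (-0.12 and -0.09) and Zfp72 (-0.21) were not called. Of the 41 tested probes from there to position 50, 3 were called (7.32%). These were Arsk at position 31 (0.32, limma adjusted p = 0.0482), 2210408I21Rik at 35 (-0.42, 0.0149) and Mef2c at 45 (0.31, 0.0352). The second probes of Arsk (0.10) and 2210408I21Rik (-0.10) were not called. When 1 array was left out, 2210408I21Rik kept its call in 8 of 8 fits, and Arsk and Mef2c in 1 of 8 each.

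The opposite side of Lpcat1 served as a comparison within the same chromosome. Its 10 nearest genes, from Mrpl36 and Ndufs6 through Irx4, Irx2, Gm20554, Irx1, Adamts16, Ice1 and Med10 to Ube2ql1, gave 10 tested probes with 0 calls by limma or the t-test of the methods. An unadjusted limma p under 0.05 was reached by 2, and 2 did not overlap between genotypes. Their differences ran from -0.31 to 0.09, with Adamts16 at the lower end (limma adjusted p = 0.0655). Over the 50 nearest genes, 0 of 62 tested probes were called there by limma or the t-test, and 9 reached an unadjusted limma p under 0.05. On the side of the flanking genes limma called 6 of 52 (11.5%, against 2.92% of all tested probes) and the t-test 4, and 15 reached an unadjusted limma p under 0.05. Among the probes of the opposite side, 8 of 62 did not overlap between genotypes, against 9 of 52 on the side of the flanking genes. The shares over all tested probes are 17.5% for no overlap and 23.8% for an unadjusted p under 0.05, so by no overlap the side of the flanking genes was close to the background. The count of 0 calls in 62 on the opposite side likewise lay near the background of 2.92%. Without 1 array the side of the flanking genes had 2 to 5 calls and the opposite side 0 or 1, limma with array weights gave the opposite side 2, and with no filter on dim probes the side of the flanking genes had 0. Beyond position 50 the shares were 2.48% of 202 probes on the side of the flanking genes and 4.07% of 393 on the other. Chromosome 13 as a whole had 28 of 710 tested probes called (3.94%), which ranked 3 among 20 chromosomes that ranged from 2.12% to 4.53%. No test of the stretch as a whole was made, since its genes share a chromosome and the same 8 arrays.

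**Figure D5:**
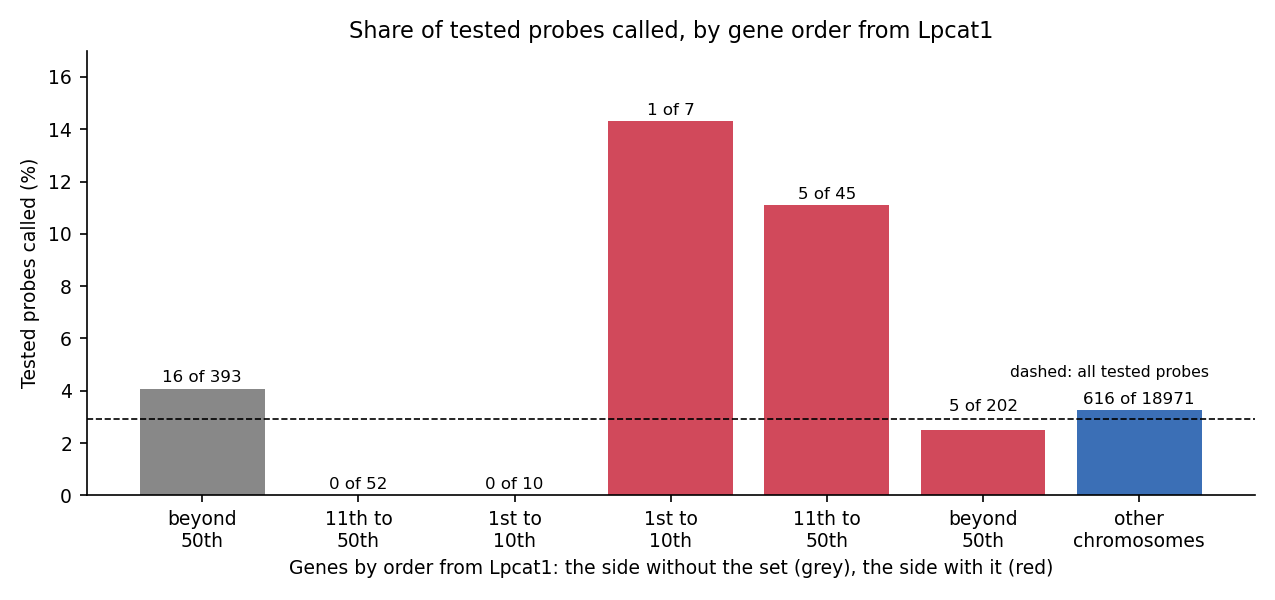
Share of tested probes called (percent, vertical axis) by gene order from Lpcat1, for the side without the flanking genes (grey), the side with them (red) and other chromosomes (blue), with the number called and tested above each bar. The dashed line is the share over all tested probes, 2.92%. The 10 nearest genes on the side of the set hold 1 call in 7 tested probes, and those on the other side 0 in 10.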

How the data were processed

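Whole retina RNA of 4 WT and 4 KO samples (groups as in their labels) was hybridised in 1 colour (Cy3) to Agilent SurePrint G3 mouse arrays. The authors used Feature Extraction 10.7.1.1 for quantification, and the deposited scanner files hold intensity on a linear scale with background subtracted and no scaling between arrays. The authors' deposited series table holds log2 values after a 75th percentile shift in GeneSpring and served as an alternative. It differed from the levels used here by a constant of 0.12 to 0.15 per array. No per-sample column was unused (0 columns).

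Levels were log2 processed signal minus the 75th percentile of the 59305 spots of an array that are not controls. Outlier spots (86 to 147 per array) and 3671 control spots were left out, and repeated spots were averaged. Of 55681 probes, 35020 to 36366 were well above background in WT and 33110 to 35616 in KO. Accessions, without version, matched 26407 probes to a RefSeq gene table. Since the array was designed on another build (mm9), only names and gene order were taken from it, counted over genes with a probe. Promoter windows came from RefSeq. KO was set against WT with limma 3.58.1 (lmFit, eBayes; R 4.3.3) and no covariate, adjusted by Benjamini-Hochberg over all tested probes and tested on simulated data beforehand. Single values were compared by exact permutation tests. Named genes were the 10 flanking genes, Lpcat1, the 10 nearest genes on each side and called genes among the 50 nearest. Nnt, named in the same rule, was not matched and is not analysed here. Of the marker genes, 1 is not reported here. The flanking genes were defined by position, but this set and the lists were chosen with earlier results of these data known. Alternatives were other scalings, normexp, 2 filters on dim probes, the methods' t-test, other limma settings, the replicate number as a block, the authors' values, flagged spots kept, other thresholds and leaving out each array.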

Additional observations from a re-analysis of the deposited data

Results flagged for a closer look

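The level of Nkd2 (the brighter probe) in KO replicate 1 was 0.45, far from the other 3 KO values, which were 0.08 to 0.14. Its gap to the nearest of them exceeded the 95% critical value of Dixon's test for 4 values. Among 28 groups of 4 values examined in this way, 1 passed, and chance alone passes about 1 in 20. Without KO replicate 1 the difference of Nkd2 was -0.20 and was not called (limma adjusted p = 0.0876).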

How the results depend on the processing

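The number of called flanking probes (3) and of called probes in all (992) changed when 1 array was left out, which also leaves fewer arrays for the test. Leaving out each array in turn gave 1 to 3 flanking probes, with 1 without WT replicate 2 or 3 or KO replicate 2, 3 or 4, and between 369 (WT replicate 2 left out) and 1183 (KO replicate 1 left out) of all probes. The count among the 10 nearest genes of each side, Trip13 alone, was 1 in each of these fits. With no filter, dim probes also enter the limma fit and the adjustment, and these 3 counts were 0, 246 and 0 (flanking, all, nearest). At a minimum fold change of 1.5 they were 0, 138 and 0. A median shift gave 660 probes in all. An adjusted p under 0.5 gave 3136 in all and 3 among the nearest genes. The nearest count was 0 under normexp and 2 with limma's trend and robust eBayes or with array weights.

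Trip13 missed the call at -0.19 under normexp (limma adjusted p = 0.0215) and at -0.29 without the filter (0.0555), and its difference was -0.32 to -0.26 without 1 array. Tppp missed it at 0.32 under a median shift (limma adjusted p = 0.0730) and at 0.30 without the filter (0.0886), with 0.27 to 0.34 without 1 array. Ahrr missed it at 0.51 without the filter (limma adjusted p = 0.0774), with 0.44 to 0.56 without 1 array. Slc12a7, which was not called, ranged from -0.0062 (KO replicate 4 left out) to 0.081 without 1 array. The cause of these shifts was not tested. The share of called probes that were higher in KO was 47.4%, and 57.1% under quantile normalization and 60.2% with a percentile of only the probes detected throughout.

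Whether equal replicate numbers pair the samples is not settled. The deviations of same-numbered WT and KO samples correlated at 0.25, 0.07, 0.04 and 0.11 for replicates 1 to 4. The mean correlations with the other numbers were lower, at -0.09, -0.02, -0.01 and -0.03. An effect shared by samples of equal number was not tested. With the replicate number as a block, 395 probes were called in all, 1 among the flanking genes (Ahrr) and 0 among the nearest genes, with Trip13 at -0.29 (limma adjusted p = 0.0513) and Tppp at 0.30 (0.0571). Dim probes limit what can be said of Cep72 and of the second probes of Nkd2 and Ahrr.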
